A study of Homo sapiens with 42 samples.

Results

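Chromatin accessibility of HCC2935 cells was compared between drug tolerant persister (DTP) cells and DMSO controls, region by region and relative to the 10 Mb stretch of chromosome around each region. HCC2935 is a human lung adenocarcinoma line with a mutant EGFR gene. The comparison rested on 6 of the 42 libraries of the series, 3 per group, and on a table of 361905 regions of equal width, with coordinates in hg38. Of these regions 154179 passed a filter on low counts, 153989 of the tested regions lay in 10 Mb bins with at least 50 tested regions, and 65263 tested regions carried a gene symbol or annotation class from the authors.

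The DTP group had received osimertinib, an inhibitor of mutant EGFR, at 500 nM over 24 days. Control cells had grown for 21 days without drug and then for 3 days with the solvent DMSO. Another HCC2935 group, the sequential combination, had received 500 nM osimertinib for 21 days and 150 nM AZD5153 for 3 days. Its 3 libraries were not compared in the fits but entered the filter, the normalization, the bin deviations and the estimate of spread. They also entered the mean counts by which regions were named and the strongest promoters chosen. For one comparison, the same 2 groups of PC9 and H1975, which are EGFR mutant lung adenocarcinoma lines treated in the same way, were used, with 3 libraries in each group. The labels call the 3 libraries of a group biological triplicates of 1 line, and the p-values measure the spread between these libraries. Titles and series design give ATAC-seq, whereas the extraction protocol is one for H3K27ac ChIP. The counts are treated as ATAC-seq in what follows.

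Persister cells are the few cells that survive a targeted drug without a resistance mutation having been selected. EGFR signals through the RAS, RAF, MEK and ERK kinases, and ERK activity is limited by feedback genes such as the DUSP phosphatases and the SPRY and SPRED inhibitors. In ATAC-seq a transposase cuts open DNA at promoters and enhancers, and the reads of a region count how often it was cut. A read count also scales with the number of DNA copies, which is why a change shared by a whole chromosome segment and a change at 1 region are kept apart below. In these bulk libraries a change in each cell, a change in the share of cells and a change in the copies of a segment cannot be told apart.

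The promoters of 6 genes are shown because their measured regions covered at least 150 bases of the RefSeq promoter window (250 bases before to 50 after the start, GRCh38.p14) and had the 3 largest rises and the 3 largest falls among the named promoters described below. They were chosen after their values were seen, because the windows of the 4 promoters chosen by the rule for sequences (CORO1C, FNDC3B, ENPP3 and KATNBL1) overlapped their measured regions by 0 bases. Capitals mark matches, on either strand, to any of 10 short motifs spelled out further below. The promoters that rose belong to SCAT2, a non-coding RNA (chr12:54262365-54262664, plus strand), to CD74, the invariant chain of antigen presentation (chr5:150412861-150413160, minus strand), and to ALDH1A1, an aldehyde dehydrogenase that makes retinoic acid (chr9:72953004-72953303, minus strand).
SCAT2: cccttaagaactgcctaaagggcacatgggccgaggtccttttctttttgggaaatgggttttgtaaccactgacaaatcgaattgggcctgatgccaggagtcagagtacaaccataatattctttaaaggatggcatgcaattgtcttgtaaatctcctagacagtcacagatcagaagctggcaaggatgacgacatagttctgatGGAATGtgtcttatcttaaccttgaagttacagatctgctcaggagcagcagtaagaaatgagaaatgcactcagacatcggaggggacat
CD74: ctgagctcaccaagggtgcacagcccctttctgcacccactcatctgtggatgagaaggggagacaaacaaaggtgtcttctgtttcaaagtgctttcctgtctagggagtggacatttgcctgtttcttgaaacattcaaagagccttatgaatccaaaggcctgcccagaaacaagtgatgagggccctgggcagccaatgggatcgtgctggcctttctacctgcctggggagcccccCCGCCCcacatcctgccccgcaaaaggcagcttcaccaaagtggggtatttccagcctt
ALDH1A1: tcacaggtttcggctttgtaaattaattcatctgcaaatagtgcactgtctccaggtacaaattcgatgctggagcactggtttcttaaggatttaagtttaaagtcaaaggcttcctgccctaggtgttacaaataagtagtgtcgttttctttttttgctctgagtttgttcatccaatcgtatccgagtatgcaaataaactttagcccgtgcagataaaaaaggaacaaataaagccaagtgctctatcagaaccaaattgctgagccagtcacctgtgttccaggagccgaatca
The promoters that fell belong to TYMS, the thymidylate synthase of DNA synthesis (chr18:657403-657702, plus strand), to TP63, a basal cell transcription factor (chr3:189631139-189631438, plus strand), and to CXCL8, a neutrophil chemokine (chr4:73740319-73740618, plus strand).
TYMS: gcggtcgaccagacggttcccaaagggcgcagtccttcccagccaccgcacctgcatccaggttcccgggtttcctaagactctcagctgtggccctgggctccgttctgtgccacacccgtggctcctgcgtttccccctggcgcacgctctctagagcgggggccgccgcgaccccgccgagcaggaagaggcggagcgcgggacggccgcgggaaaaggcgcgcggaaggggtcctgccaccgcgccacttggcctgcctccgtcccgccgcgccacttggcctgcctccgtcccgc
TP63: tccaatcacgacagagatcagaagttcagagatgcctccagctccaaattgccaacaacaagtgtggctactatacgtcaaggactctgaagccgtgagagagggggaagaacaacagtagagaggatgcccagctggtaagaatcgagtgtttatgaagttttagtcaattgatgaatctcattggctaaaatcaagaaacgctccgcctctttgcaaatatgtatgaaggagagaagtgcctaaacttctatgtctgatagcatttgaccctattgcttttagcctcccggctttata
CXCL8: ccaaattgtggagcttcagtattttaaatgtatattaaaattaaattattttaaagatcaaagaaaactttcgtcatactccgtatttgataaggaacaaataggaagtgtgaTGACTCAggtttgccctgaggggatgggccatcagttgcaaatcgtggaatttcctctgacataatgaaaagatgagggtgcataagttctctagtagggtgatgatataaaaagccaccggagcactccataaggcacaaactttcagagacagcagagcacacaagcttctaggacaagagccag
The CXCL8 window held 1 AP-1 match, the SCAT2 window 1 TEAD match and the CD74 window 1 SP/KLF match, and no letters of the 10 motifs were found in the other 3 windows.

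Total counts in the regions were 3968690 to 5490121 in the control libraries and 6032567 to 6996320 in the DTP libraries. Pairs of libraries of a group differed by 1.17 to 1.82 times the variance of counting alone, and each was counted as labelled. All 10 listed epithelial markers had a tested promoter region, among them KRT8 (28.3 to 33.2 CPM, which are counts scaled to the normalised total of the library, in control and 34.6 to 36.4 in DTP) and CDH1 (24.7 to 30.7 and 26.4 to 33.8). These 2 were picked after their values were seen. With bin medians subtracted, as described below, 2 others of the 10, EPCAM and KRT18, were called lower and 0 higher. Tested promoters were found for 1 of 11 immune, 3 of 9 fibroblast and 1 of 8 endothelial markers.

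Large stretches of several chromosomes changed together. As is, 57525 regions (37.3% of those tested) were called at an adjusted p under 0.05 by edgeR's quasi-likelihood test, 28799 higher (18.7%) and 28726 lower (18.6%) in DTP. Over 300 bins of 10 Mb the median change had an SD of 0.334 on the log2 scale and ran from -1.04 to 0.97. In 72 bins the median was up by at least 0.3 and in 30 it was down by as much. Control and DTP libraries did not overlap in any of these 102 bins, beside 78.3% of all 300 bins.

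**Figure D1:**
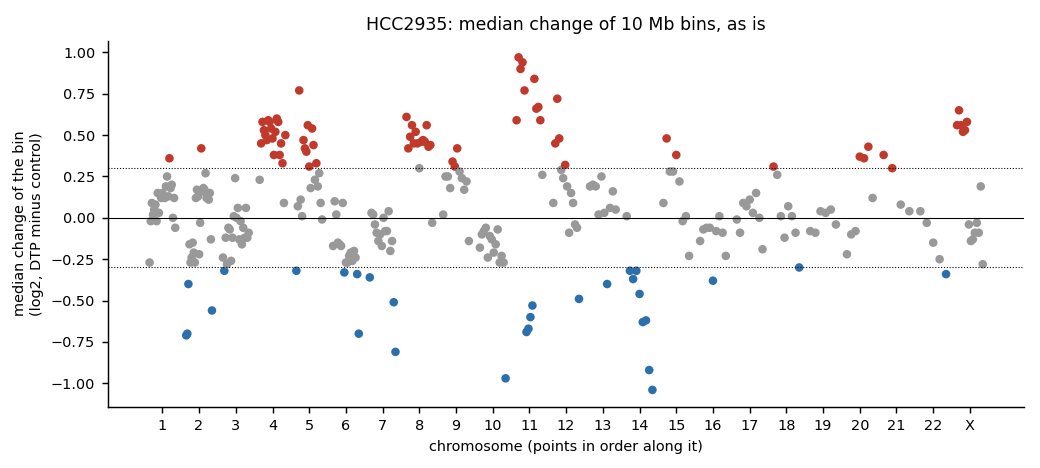
Median change (log2, DTP minus control, as is) of each 10 Mb bin with at least 50 tested regions, in order along chromosomes 1 to 22 and X, with dotted lines at 0.3 either way and bins past them coloured. Chromosomes 4 and 8 lie mostly above the upper line, chromosome 14 lies below 0 over most bins, and chromosome 11 has bins from -0.69 to 0.97.

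Chromosome 14 held the lowest bin, from 100 Mb to its end, with a median of -1.04 over 2074 regions. Its median library deviations were 0.55, 0.59 and 0.64 in control and -0.30, -0.38 and -0.17 in DTP, so the groups stood apart by more than the range within either. The highest bin was chromosome 11 from 10 to 20 Mb, with a median of 0.97 over 749 regions and deviations of -0.56, -0.59 and -0.56 in control and 0.34, 0.33 and 0.28 in DTP. The bin of chromosome 10 from 130 Mb had a median of -0.97, and that of chromosome 7 from 150 Mb a median of -0.81. Within a group the libraries ranged by a median of 0.06 (control) and 0.07 (DTP) over bins.

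Subtracting the bin median of each library lowered the number of calls and brought the higher and lower shares within chromosomes closer together. With bin medians subtracted, 49023 regions (31.8%) were called, 24438 higher (15.9%) and 24585 lower (16.0%). Of the 57445 regions in bins that were called as is, 41896 (72.9%) were called the same way, 15478 (26.9%) were no longer called and 71 changed direction. A further 7056 regions, 14.4% of the calls after subtraction, were called only then. The SD of the change over regions fell from 1.06 to 1.00, and 11.7% of its variance lay between bins, so most of the spread of change was within bins.

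On chromosome 14, 42.6% of tested regions were lower as is and 14.9% after subtraction, while the share that was higher went from 8.13% to 16.5%. Chromosome 4 moved the other way, from 33.3% higher and 8.11% lower as is to 17.7% and 16.4%. Chromosome 11 lost calls in both directions, from 30.3% higher and 22.6% lower to 15.9% and 14.9%. On chromosome 19, where bin medians stayed between -0.09 and 0.05, the shares hardly moved (11.6% higher and 11.2% lower as is, 10.5% and 10.7% after). Of the 71 regions that changed direction, 54 were on chromosome 14 and went from lower to higher, and the 10 that went from higher to lower were all in the chromosome 11 bin with the median of 0.97.

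**Figure D2:**
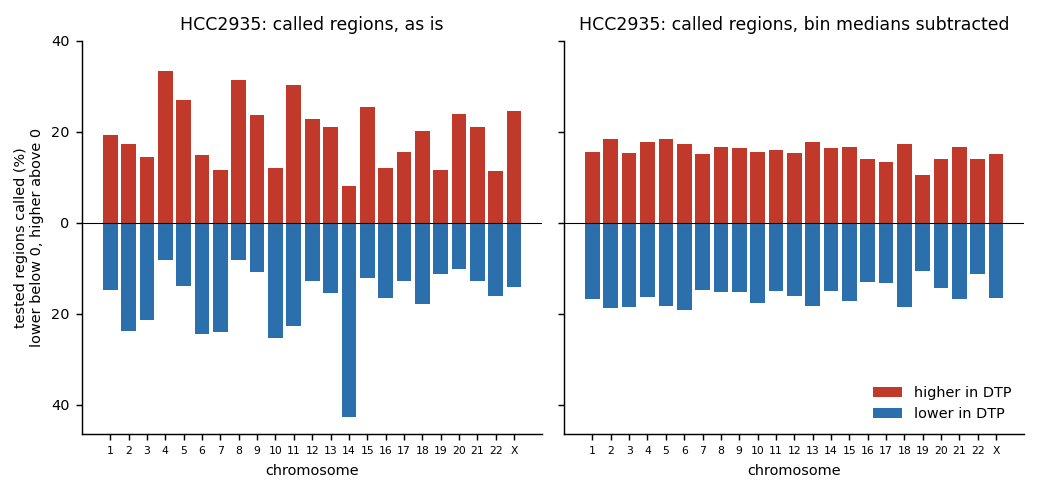
Share of tested regions called higher (above 0) or lower (below 0) in DTP by chromosome (1 to 22 and X), as is on the left and with bin medians subtracted on the right. Chromosome 14 drops from 42.6% to 14.9% lower and chromosome 4 from 33.3% to 17.7% higher. The higher and lower shares within a chromosome become more alike, while the share called still runs from 21.2% (chromosome 19) to 37.1% (chromosome 2).

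Within bins, windows of 1 Mb could differ from the rest of their bin. Of 2403 windows of 1 Mb with at least 10 tested regions, 213 had a subtracted median past 0.5 in size, 132 up and 81 down, and these held 5.95% of the called regions. The highest was chromosome 4 from 117 to 118 Mb, where the median was 3.91 and 10 of 10 regions were called. Next were chromosome 4 from 96 to 97 Mb (3.64, 11 of 12 called) and from 45 to 46 Mb (3.55, 13 of 15 called) and chromosome 13 from 93 to 94 Mb (3.22, 8 of 10 called). The lowest was chromosome 4 from 164 to 165 Mb, with a median of -1.89 and 11 of 16 called. Such a median is relative to the bin: chromosome 12 from 23 to 24 Mb was at -0.76 in a bin with an as is median of 0.72. The highest window medians also depend in part on the filter, which asked for enough counts in as many libraries as a group holds. A region near 0 in control could thus enter through the DTP or combination libraries alone. All values that follow have bin medians subtracted unless they are said to be as is.

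Promoters changed less often than regions in introns or between genes, and more often upwards. Within 1 kb of a transcription start, 15.8% of 23219 tested regions were higher and 9.14% lower, with a median change of 0.10. In introns 23.9% of 19385 were higher and 26.4% lower, and in distal intergenic regions 21.7% of 12788 were higher and 23.3% lower. Regions that the authors left without annotation were called least often outside promoters (12.8% higher and 13.7% lower of 88789), and they had a median mean count of 11.6 against 53.1 in promoters and 33.6 in introns.

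The classes also differed within 3 classes of mean count of equal size. Among the annotated regions with the highest counts, 15.3% of promoter regions were higher and 7.07% lower, beside 21.7% and 25.9% of intronic regions. Among those with the lowest counts the values were 16.2% and 15.5% in promoters and 25.1% and 30.4% in introns. The share called rose with distance from the nearest start, from 19.5% higher and 22.5% lower at 1 to 3 kb to 24.9% and 27.8% at 50 to 100 kb, and the SD of the change rose from 0.62 within 1 kb to 1.23. Annotated regions all lay within 100 kb of a start.

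Some regions that were closed in control opened in DTP. The rule for named regions asked for calls in the same direction as is and after subtraction, no overlap of control and DTP libraries (42.9% of all regions did not overlap after subtraction) and a mean count above the median of 17, and it was met by 10169 rises and 8070 falls. The values that follow are therefore chosen by size. The symbol of a region is that of the nearest start in the authors' annotation and is not evidence that the gene is controlled by it.

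The largest rises outside promoters had 0 or 1 counts over the 3 control libraries, so counts and CPM are given and no fold. These regions passed the filter only through the DTP or combination libraries, where they are high. Near LOC389895 (chrX:140180576-140181077, intergenic) the controls held 0 counts and the DTP libraries 8.36, 7.61 and 2.86 CPM. In the intronic region nearest to NAV2, which encodes a protein of neuronal migration (chr11:19946610-19947111), the controls held 0 counts and the DTP libraries 4.94, 6.12 and 5.53 CPM. Upstream of SLC25A37, the mitochondrial iron carrier, the controls held 0 counts and the DTP libraries 4.37, 2.65 and 4.39 CPM. The authors had called peaks there in 2, 3 and 2 of the DTP libraries and in 0 of the controls.

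Another 5 regions held 1 count over the controls. In the intronic region nearest to ERC2, a presynaptic scaffold gene, DTP values were 7.79, 9.26 and 8.59 CPM. In the intronic region nearest to KIRREL3-AS2, an antisense RNA, they were 13.1, 11.7 and 8.40 CPM, and in that nearest to LINC01378, a non-coding RNA inside the chromosome 4 block at 117 to 118 Mb, 10.8, 10.1 and 8.78 CPM. The exonic region nearest to RYR2, the calcium release channel of heart muscle, reached 9.31, 5.95 and 8.97 CPM, and the intronic region nearest to NEGR1, a neuronal adhesion gene, 7.98, 5.46 and 8.40 CPM. Peaks were called in 3 DTP libraries and no control library at all 5, and the adjusted p-values ran from 3.2e-12 (ERC2) to 1.85e-10 (NEGR1).

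The largest falls outside promoters were open in all 3 controls and near closed in DTP. In the intronic region nearest to OCIAD2 (chr4:48902232-48902733), the controls had 38.4, 43.4 and 26.6 CPM and the DTP libraries 2.28, 2.48 and 2.10 CPM. The change was -4.44 ± 0.226 (SE, n = 3 per group, adjusted p = 1.2e-18), against -3.97 as is in a bin with a median of 0.50. In an intergenic region near SERPINB1, an inhibitor of neutrophil proteases (chr6:2823374-2823875), the controls had 18.3, 15.4 and 16.6 CPM and the DTP libraries 0.76, 0.66 and 0.76 CPM (change -4.38 ± 0.306, adjusted p = 4.09e-15). In the intronic region nearest to CDH18, a cadherin (chr5:20017627-20018128), the controls were spread from 12.8 to 38.7 CPM and the DTP libraries had 1.9 to 2.1 CPM (-4.40 ± 0.298).

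The other 5 falls outside promoters were of like size. The intronic region whose nearest start was that of PLPPR5-AS1, a non-coding RNA, had the largest fitted fall of the 8, -4.73 ± 0.352, from 11.9 to 19.5 CPM in control to 0.19 to 1.16 CPM in DTP. The intronic region nearest to PITPNM3, a phosphatidylinositol transfer protein, fell by 4.38 (18.9 to 38.8 CPM to 1.16 to 2.10 CPM). The regions nearest to LOC100507384 and TMEM72-AS1, both non-coding, fell by 4.34 each, and the region nearest to MIR5579 fell by 4.28, from 28.6 to 34.1 CPM to 0.83 to 1.52 CPM. Peaks were called in all 3 control libraries at these 8 regions and in none of the DTP libraries, except for 1 at CDH18.

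Among the promoters that rose, 5 are described. A promoter region of PCDH20, a protocadherin, rose from 0.44, 0.30 and 0.31 CPM to 14.2, 13.6 and 13.4 CPM (4.97 ± 0.383). One of USP40, a deubiquitinase, rose from 0.591 to 0.655 CPM to 14.7 to 20.5 CPM (4.77 ± 0.341). Like the rises outside promoters, all 5 passed the filter only through the DTP or combination libraries. The controls of the 3 named rises other than PCDH20 and USP40 held 1 to 3 counts in all, so no fold is given.

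Those 3 promoters were of CORO1C, an actin-binding coronin (DTP 9.69, 7.28 and 7.06 CPM), FNDC3B, a fibronectin domain protein (16.7, 13.7 and 12.8 CPM), and SCAT2, whose window is printed above (7.41, 7.94 and 8.59 CPM). For CORO1C and FNDC3B the opened region lay outside the RefSeq window, 0 and 28 bases from a start in the authors' annotation. Peaks were called in 0 control and 3 DTP libraries at all 5 promoter rises.

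The promoter falls included 3 small nuclear RNA genes, whose RNAs take part in splicing. The region of RNU5F-1 went from 20.5, 25.4 and 14.7 CPM in control to 1.52, 1.32 and 1.72 CPM in DTP (-3.8 ± 0.270, adjusted p = 6.59e-15). RNU5A-1 fell by 3.74 ± 0.314, from 9.7 to 14 CPM to 0.95 to 1.33 CPM, and RNVU1-6 fell by 3.57 ± 0.280, from 13.1 to 18.9 CPM to 1.16 to 1.71 CPM. These genes have near-identical copies, so the reads of a region there are uncertain, although the 3 regions lay 479 to 753 bases from the start rather than on it.

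ENPP3, an ectonucleotidase, fell from 19.4, 15.1 and 14.7 CPM to 0.76, 1.16 and 1.34 CPM (-3.72 ± 0.293), and KATNBL1, a katanin subunit, from 10.3 to 13.6 CPM to 0.95 to 1.65 CPM (-3.67 ± 0.305). IL17B, a cytokine gene, was the least of the 11 named promoters in size, with 27.1, 16.2 and 17.2 CPM in control, 3.8, 2.81 and 2.86 CPM in DTP and a change of -3.02 ± 0.248. The rule for named regions required that control and DTP libraries did not overlap.

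**Figure D3:**
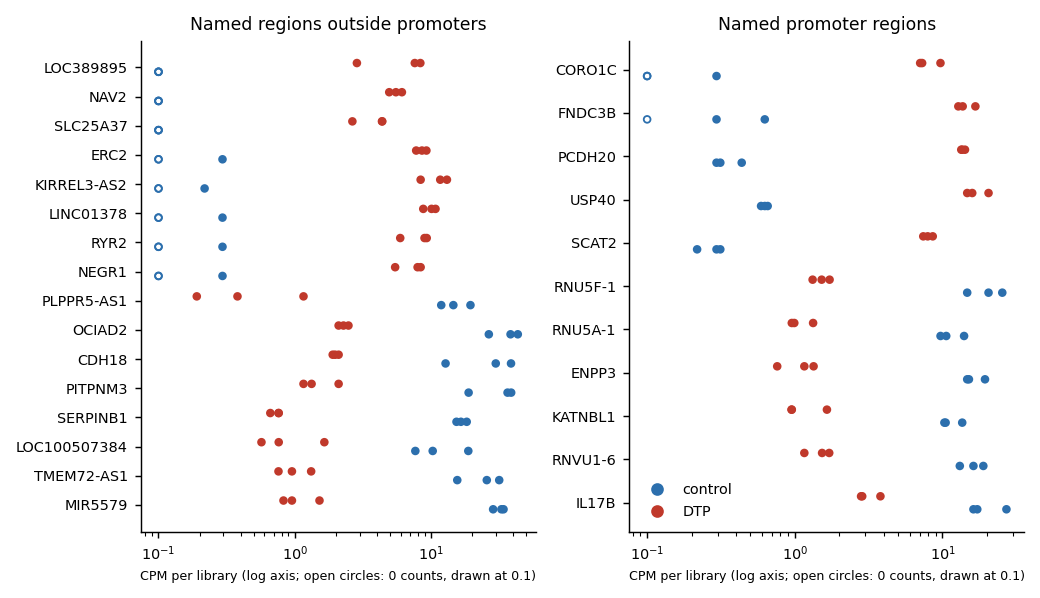
CPM in each control (blue) and DTP (red) library at the 16 named regions outside promoters (left) and the 11 named promoter regions (right), on a log axis with libraries of 0 counts drawn as open circles at 0.1. Control and DTP libraries do not overlap at any of the 27 regions, as the rule that chose them required.

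Whole gene loci also moved in 1 direction. Of 4389 symbols with at least 5 tested annotated regions, 562 (12.8%) had at least 50% of their regions called one way and none the other, 289 higher and 273 lower, while 2182 had calls both ways. The loci below are those with the largest medians among the 562, so their medians describe the choice.

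TENM3, a teneurin of synaptic adhesion (chromosome 4), had 5 of 5 regions higher, with a median change of 3.77 and a range of 0.67 to 5.39. Summed over its regions the controls had 5.46, 5.61 and 4.38 CPM and the DTP libraries 34.4, 38.0 and 35.7 CPM. The 20 annotated regions of other symbols within 1 Mb had a median of -0.03, whereas the 1 Mb window of all tested regions there, annotated or not (182 to 183 Mb), had a median of 2.42 and 15 of 23 called. IGFBP7, a secreted protein that binds insulin-like growth factors, had 6 of 7 regions higher (median 2.59), with sums of 5.90, 8.56 and 9.08 CPM in control and 54.0, 56.1 and 46.8 CPM in DTP and a flank median of 0.09. Its window from 57 to 58 Mb had a median of 1.15 over all tested regions, with 21 of 34 called. RIMKLB, a glutamate ligase gene, had 5 of 5 regions higher (median 2.84), and its flank had a median of 0.39 with 20 of 44 regions higher and 2 lower.

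DTD2, a tRNA proofreading enzyme, had 4 of 5 regions higher (median 2.61) with a flank median of 0.00 over 92 regions. ADAMTS16, a secreted metalloprotease, had 5 of 6 higher (2.64) and a flank median of 0.45, with 5 of 16 flanking regions higher and 0 lower. LOC101927151 had 5 of 7 higher (3.09), and all 3 of its flanking regions were higher (median 0.89). The flank medians were highest at LOC101927151 and at 2 non-coding loci of chromosome 5. PURPL, an RNA that lowers p53, had a median of 2.52 (7 of 8 higher) and a flank median of 1.08, and its median was 1.09 when bins of 2 Mb were subtracted. LINC02199 had a median of 2.48 (7 of 8 higher), a flank median of 0.87, and 1.67 with bins of 2 Mb.

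MAL, a lipid raft protein of apical transport in epithelia, had the most regions among the falling loci, with 15 of 19 lower and a median of -1.72. Its sums were 263, 184 and 250 CPM in control and 109, 102 and 94.5 CPM in DTP, and the 38 flanking regions had a median of -0.14. NTRK2, a neurotrophin receptor, had 5 of 8 regions lower (median -2.23, flank median -0.13), and its sums fell from 56.8 to 63.2 CPM to 28.6 to 32.4 CPM. PLA2G2C, a phospholipase locus, had 7 of 7 lower (-2.29) and UQCC2, a respiratory complex assembly factor, 5 of 6 (-1.86), with flank medians of 0.01 and 0.10.

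The remaining falling loci were PDZD8, a lipid transfer protein (4 of 6 lower, median -1.71), FAM172A (3 of 5, -1.59), GRIK2, a glutamate receptor (5 of 8, -1.58), and CASC16, a non-coding locus (5 of 8, -1.50). Their flank medians lay between -0.18 and 0.20. In each of the 8 falling loci no region was called higher.

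Genes of 26 pathway, lineage and marker lists were then read. The strongest promoter region of each gene is given first, for which 15.4% of all genes were higher and 7.34% lower with a median of 0.0955. Other annotated regions of the same symbols are given second, of which 21.2% were higher and 22.2% lower in all genes with a median of 0.0112. Of 349 listed genes with a promoter region, 59 were higher and 35 lower. As is, 130 were called, of which 71 kept their call and 59 did not, and 23 were called only after subtraction.

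Of 19 promoters of feedback genes and targets of ERK signalling, 6 were lower and 0 higher (median -0.31), and the rest did not pass, such as DUSP1 (0.00) and EPHA2 (0.38). Of their 149 other regions, 70 were lower (47.0%) and 19 higher (12.8%). DUSP6, the phosphatase that inactivates ERK, had a promoter of 35.8, 31.0 and 37.6 CPM in control and 22.8, 17.9 and 20.8 CPM in DTP (-0.66 ± 0.152, adjusted p = 0.000676), and 3 of its 4 regions outside promoters were lower. SPRED1, an inhibitor of RAS activation, had 14.9, 24.5 and 16.0 CPM in control and 10.3, 11.9 and 10.5 CPM in DTP (-1.19 ± 0.191, adjusted p = 3.2e-06), with 5 of 6 regions outside promoters lower. As is, its promoter changed by -0.74 in a bin with a median of 0.48. The promoters of PHLDA1 (-0.86), ETV4 (-0.53), SPRY2 (-0.41) and ETV5 (-0.31), which ERK induces, were also lower. With 1 library left out, 3 to 7 of the promoters and 56 to 71 of the other regions were lower.

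Among the promoters on chromosome 11, FOSL1, an AP-1 subunit, went from 58.2 to 71 CPM to 35.5 to 44.5 CPM, a change of -0.71 as is in a bin with a median of -0.67, and -0.12 after subtraction (adjusted p = 0.445). CCND1, which encodes cyclin D1, changed by -0.62 as is and by -0.03 after subtraction, yet all 4 of its regions outside promoters were lower, with a median of -1.37. ETV1, in a bin with a median of 0.03, had a promoter change of 0.07 and 4 of 5 regions outside promoters lower.

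EGFR, the drug target, is named outside the rule. Its promoter had 16.8, 17.7 and 13.8 CPM in control and 16.5, 17.5 and 16.8 CPM in DTP (0.21 ± 0.165, adjusted p = 0.348), and of 22 other regions 9 were higher and 1 lower. The list of EGFR family and ligand genes, which also holds ERRFI1, LRIG1 and LRIG3, had 12 promoters. After subtraction 0 were called by edgeR, 0 had an unadjusted p under 0.05, and 0 to 1 were higher and 0 to 1 lower over the 20 alternatives, DESeq2 and limma included. As is, 2 were called higher, NRG1 (0.80) and LRIG3 (0.56), and 1 lower, TGFA (-0.41). Of the 85 other regions of the list 25.9% were higher and 17.6% lower after subtraction.

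Lung lineage genes were read in 2 lists. Of 80 other regions of airway genes, 36 were lower (45.0%) and 2 higher, and of 50 of alveolar genes, 18 were lower (36.0%) and 5 higher. With bins of 2 or 5 Mb the alveolar count was 11 lower and 7 higher. NKX2-1, the transcription factor that marks lung adenocarcinoma, had a promoter of 35.2, 31.6 and 34.1 CPM in control and 17.5, 23 and 17.7 CPM in DTP. Its change was -0.79 as is and -0.51 ± 0.140 after subtraction (adjusted p = 0.00417), in a bin with a median of -0.32. Its neighbour SFTA3 went from 111 to 116 CPM to 49.4 to 54.7 CPM (-0.85 ± 0.106), and NAPSA, an aspartic protease of alveolar cells, from 14.1 to 19.4 CPM to 8.59 to 11.9 CPM (-0.83 ± 0.191).

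The TP63 promoter, printed above, fell from 13.3, 13.6 and 11.3 CPM to 5.13, 3.8 and 4.39 CPM (-1.39 ± 0.224). ELF3, an epithelial transcription factor, changed by 0.00 at its promoter while 11 of its 15 other regions were lower and none higher. FOXA1, a pioneer factor of airway epithelium, had 6 of 11 regions outside promoters lower and a promoter change of -0.24 (adjusted p = 0.264). SLC34A2, a phosphate carrier of alveolar cells, had a promoter that rose by 1.01 and 2 of 3 regions outside promoters lower, with a median of -2.03. Of 14 alveolar promoters 4 were lower and 1 higher although their median was 0.115, and of 11 airway promoters 2 were lower and 0 higher (median -0.346). The 4 were NKX2-1, its neighbour SFTA3, NAPSA and ETV5, which is also among the ERK targets counted above. With bins of 5 Mb 2 alveolar promoters were lower and 3 higher, and with 1 library left out 2 to 5 were lower and 0 to 1 higher.

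Of 10 promoters of epithelial markers 2 were lower, EPCAM (-0.47 ± 0.127, from 39.6 to 46.0 CPM to 23.4 to 27.3 CPM) and KRT18 (-0.42 ± 0.149, with CPM values that overlapped between groups), and 0 were higher. With 1 library left out 0 to 2 of them were lower. Of their 73 other regions 27 were lower (37.0%) and 11 higher (15.1%), and 11 of the 27 belong to ELF3, which the airway list also holds. Of the 3 fibroblast promoters COL1A2 was higher, no endothelial promoter was called, and the 1 tested immune promoter, CD68, a lysosomal protein that other cells also make, fell by 1.19.

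**Figure D4:**
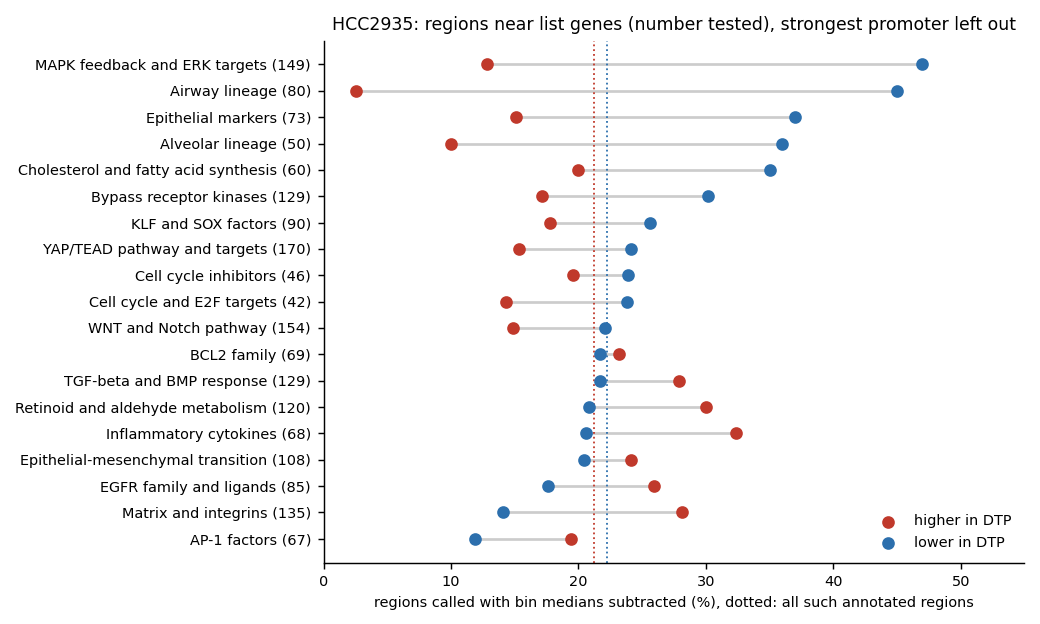
Share of the annotated regions of list genes, other than the strongest promoter, called higher (red) or lower (blue) in DTP with bin medians subtracted, for the 19 lists with at least 40 such regions, with the number tested in brackets and the shares over all such regions dotted. ERK targets (47.0%) and airway genes (45.0%) have the highest shares lower, and inflammatory cytokines (32.4%) and retinoid genes (30.0%) the highest shares higher.

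The epithelial-mesenchymal transition list holds genes of both states. Of its 22 promoters, 7 were higher and 3 lower, and the rest did not pass. Among the rises were OVOL1 (0.96) and GRHL1 (0.39), transcription factors of the epithelial state, which were not called as is. The falls were ZEB2, EPCAM and OVOL2 (-0.98), of which the last 2 are epithelial genes. SPARC, a matrix protein, rose from 1.09, 1.18 and 1.56 CPM to 5.32, 6.95 and 4.77 CPM (2.02 ± 0.365), and CDH2, N-cadherin, from 1.53 to 2.66 CPM to 4.94 to 5.29 CPM (1.18 ± 0.328), with its 3 regions outside promoters higher as well. The promoters of TWIST2 (1.52) and FN1 (0.85), a transcription factor and fibronectin, also rose. VIM, vimentin, rose by 0.65 (adjusted p = 0.043) although its CPM values overlapped before subtraction, while ZEB2, a repressor of E-cadherin, fell by 1.46 ± 0.331 with overlapping CPM values.

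YAP and TEAD proteins carry growth and contact signals to the nucleus. Of 24 promoters of this list, 7 were higher and 0 lower, while of 170 other regions 15.3% were higher and 24.1% lower. This order turned with bins of 20 Mb (33 higher, 32 lower), whole chromosomes (52 and 34) and no filter (34 and 19). AJUBA, a LIM protein of the pathway, rose from 14.6, 13.6 and 14.7 CPM to 27.2, 31.3 and 32.1 CPM (1.04 ± 0.153, adjusted p = 6.11e-07), and CCN2 and ANKRD1, classic targets, by 0.69 and 0.58. TEAD4 rose by 0.65, TEAD1 by 0.45, WWTR1, the gene of TAZ, by 0.77 and TGFB2 by 0.77. TEAD3 changed by -0.16 at its promoter (adjusted p = 0.477 by edgeR), and all 4 of its regions outside promoters were lower (median -1.04). Of the 9 other regions of WWTR1 4 were lower and 0 higher, and of the 21 of TEAD1 6 were higher and 2 lower. YAP1 and AMOTL1 lie on chromosome 11, where as is changes of 0.61 and 0.87 became -0.02 and 0.08. With 1 library left out 4 to 7 promoters were higher.

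Of 20 TGF-beta and BMP promoters 6 were higher and 1 lower, among them INHBA, an activin subunit (1.53 ± 0.235, from 4.07 to 5.02 CPM to 10.8 to 15.4 CPM). Of 21 matrix and integrin promoters 4 were higher and 2 lower, near the shares over all genes, and without control replicate 2 they were 3 and 3. Of their 135 other regions 28.1% were higher and 14.1% lower. COL1A2, a collagen I chain, rose from 4.8, 3.25 and 4.69 CPM to 20.7, 13.6 and 13.4 CPM (1.95 ± 0.238), and COL5A1, a collagen V chain, by 1.08, with 9 of 11 regions outside promoters higher.

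Interferon and antigen presentation promoters had the highest median of the lists with at least 10 promoters, 0.54, with 6 of 12 higher and 1 lower. Only these 12 of the 25 listed genes had a tested promoter. CD74 and MX1 did not pass the filter on the control libraries alone, so the median and the count depend in part on promoters that entered where they are high. CD74 rose from 1.75, 0.89 and 1.25 CPM to 13.3, 11.7 and 11.6 CPM (3.02 ± 0.301, adjusted p = 8.57e-11), and MX1, an antiviral GTPase, from 0.59 to 3.06 CPM to 8.36 to 10.9 CPM (2.06 ± 0.320). OAS1 (1.00), IFIT1 (0.90), IFIT2 (0.79) and ISG15 (0.61), all interferon-induced, rose as well. With only regions of a mean count of at least 50 tested, 0 of these promoters were higher and 1 lower, and with 1 library left out 4 to 6 were higher.

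Among inflammatory genes CXCL8 fell from 12.9, 14.8 and 12.8 CPM to 7.98, 9.10 and 5.72 CPM (-1.36 ± 0.209), and 5 of its 6 regions outside promoters were lower. In contrast IL1B, a cytokine, rose by 1.12 at its promoter, and 4 of 6 regions outside the promoter of CCL2, a chemokine, were higher. Of the 15 promoters 3 were higher and 1 lower. With a minimum mean of 50 counts 3 of the other inflammatory regions were higher and 4 lower. AP-1 factor promoters were higher for BATF (1.76 ± 0.154, from 12.9 to 14.1 CPM to 27.6 to 34.3 CPM), BATF2 (1.04), MAF (0.70) and MAFK (0.54), 4 of 14, and lower for 0. As is, BATF changed by 1.20 in a bin with a median of -0.63 and was called higher. BATF2, MAF and MAFK changed by 0.45, 0.61 and 0.23 as is, in bins with medians of -0.67, -0.09 and -0.36, and were not called. Of the 14 promoters 2 were higher and 2 lower as is. With a minimum mean of 50 counts and bin medians subtracted, 1 was higher and 1 lower.

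The BCL2 family sets the threshold of apoptosis. BCL2, which blocks it, rose from 6.99, 6.50 and 6.89 CPM to 16.9, 16.5 and 17.7 CPM (1.40 ± 0.196, adjusted p = 2.2e-07). BOK, BAD and BBC3, which promote it, rose by 1.16, 0.63 and 0.56, although BAD changed by 0.04 as is in a bin with a median of -0.67. BMF, also pro-apoptotic, fell by 0.33 at its promoter (-0.06 as is, with overlapping CPM values) while 7 of 10 regions outside promoters were higher, and PMAIP1, the gene of NOXA, had 4 of 8 lower. In all, 4 of 15 promoters were higher and 1 lower, and with 1 library left out 2 to 5 were higher.

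Of 24 promoters of proliferation genes 3 were lower and 0 higher. TYMS fell from 12.7, 9.74 and 7.82 CPM to 4.37, 3.97 and 5.53 CPM (-1.48 ± 0.243), and AURKB, a mitotic kinase, by 0.52. E2F8, a repressor of the E2F family, had 20.3 to 31.9 CPM in control and 24.2 to 27.0 CPM in DTP, a change of 0.03 as is in the chromosome 11 bin with the median of 0.97, so its fall of 0.85 rests on the subtraction. Of 11 cell cycle inhibitors 1 promoter was higher (GADD45B, 0.61) and 0 lower.

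Receptors and developmental pathways were read next. WNT10A, a WNT ligand, rose from 4.37, 3.25 and 3.76 CPM to 20.3, 17.2 and 18.7 CPM (2.18 ± 0.217), and 5 of its 6 regions outside promoters were higher. SFRP1, a secreted WNT antagonist, rose by 1.80, and JAG2, a Notch ligand, by 1.24, of which only 0.37 was seen as is in the chromosome 14 bin with the median of -1.04. Of 26 WNT and Notch promoters 6 were higher and 1 lower. MST1R, the RON receptor, fell by 0.87 and FGFR1 rose by 0.97, and of 17 promoters of bypass receptor kinases 2 were higher and 1 lower (0 and 1 with bins of 2 Mb).

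Retinoid genes had 5 promoters higher and 1 lower of 17, with a median of -0.0395, and 30.0% of 120 other regions higher. With a minimum mean of 50 counts 9 of their other regions were higher and 11 lower. ALDH1A1 rose from 1.53, 2.07 and 2.82 CPM to 9.69, 11.2 and 10.7 CPM (2.06 ± 0.287), and RXRA, a retinoid receptor, by 0.86 with 7 of 13 regions outside promoters higher, while CRABP2, a retinoic acid carrier, fell by 0.67. Of 18 promoters of cholesterol and fatty acid synthesis 1 was higher and 3 lower, among them ELOVL6, a fatty acid elongase (-1.46). Without control replicate 2, 2 were higher and 1 lower, and over all single libraries left out 1 to 4 were lower. INSIG1 and FADS1, of the same list, changed by -0.40 and -0.47 as is and by 0.25 and 0.13 after subtraction of bins at -0.81 and -0.67.

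Lists of other lineages were thinly covered. Of 6 gut and liver promoters 2 were higher and 1 lower, with TFF1, a gastric mucosal peptide, at 1.97, 0.59 and 0.63 CPM in control and 10.1, 5.95 and 5.53 CPM in DTP (2.51 ± 0.385). Of 5 neuroendocrine promoters 1 was lower, NCAM1 (-1.54 ± 0.173). Of 17 KLF and SOX promoters KLF11 was higher (1.12) and KLF7 (-1.25) and KLF9 (-0.37) lower. With whole chromosomes subtracted, 2 neuroendocrine promoters were higher and 1 lower, and 4 KLF and SOX promoters were higher and 2 lower. The targets of AZD5153, the BET proteins, and the kinase complex they recruit had 0 of 8 promoters called by edgeR, 3 of them higher at an unadjusted p under 0.05 and 0 to 2 called higher over the alternatives, and 6 of 18 other regions higher.

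Motif shares were read in the RefSeq windows of the strongest promoters that overlapped their region, 1041 higher, 328 lower and 5964 not called. A window was counted if either strand held the letters, and matches of different motifs could overlap. The AP-1 letters TGANTCA were in 11% of the windows that fell, 4.51% of those that rose and 4.54% of those not called, beside 7.71% of all 35116 windows of the table. The NRF1 letters GCGCATG were in 2.44%, 10.1% and 8.30% in the same order (4.43% of the table), and the E-box letters CACGTG in 4.88%, 12.3% and 10.5% (7.26%). The forkhead letters TGTTTAC were in 0.92%, 2.79% and 2.03% (3.42%).

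The shares of the other 6 motifs were as follows. In windows that fell, rose and were not called, TEAD letters (GGAATG) were in 8.84%, 11.8% and 10.2%, beside 14% of the table. ETS letters (CCGGAA) were in 21.0%, 27.1% and 32.7% (17.2%), and CRE letters (TGACGTC) in 3.96%, 5.96% and 6.25% (3.45%). E2F letters (TTTCGCG) were in 3.35%, 2.02% and 2.73% (1.32%), and NKX2-1 letters (CACTTGA) in 2.44%, 1.92% and 1.54% (2.48%). SP/KLF letters (GGGCGG) were in 64.6%, 73.9% and 75% (45%). For ETS, CRE and SP/KLF the windows not called had the highest of the 3 shares. These shares are descriptions with no test.

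The change of HCC2935 was compared with the mean change of PC9 and H1975 over 100617 matched regions. With bin medians subtracted in each line, 20779 regions (20.7%) differed at an adjusted p under 0.05, 12251 (12.2%) with the more positive change in HCC2935 and 8528 (8.48%) with the more negative. CORO1C rose in PC9 (3.14, adjusted p = 8.04e-10), changed by -0.01 in H1975, and differed from their mean by 4.52 (adjusted p = 5.8e-05). ENPP3 changed by -1.0 in PC9 and -4.64 in H1975, and its difference of -0.96 did not pass (adjusted p = 0.337).

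**Figure D5:**
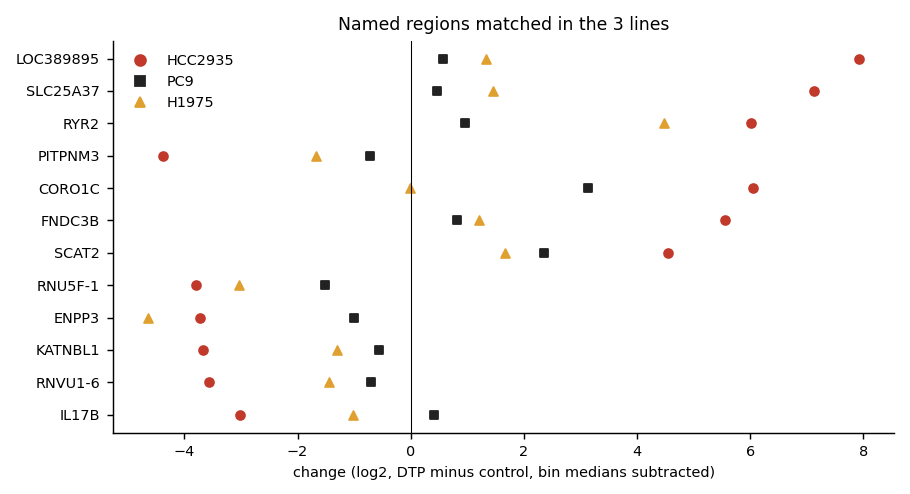
Change (log2, DTP minus control, bin medians subtracted) of the 12 named regions that were matched in all 3 lines, in HCC2935 (circles), PC9 (squares) and H1975 (triangles). HCC2935 has the most extreme value at each region except ENPP3, where H1975 reaches -4.64. The HCC2935 values are from the fit of that line alone, and those of PC9 and H1975 from the joint fit of the 3 lines.

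Of the 94 listed promoters called in HCC2935, 79 were matched, and for 40 the difference passed the test. Since the promoters were chosen for a call in HCC2935, the direction of the difference largely follows from the choice. DUSP6 went the other way, at -0.66 in HCC2935, -0.84 in PC9 and -1.71 in H1975 (difference 0.51, adjusted p = 0.00615). The -0.66 is from the fit of HCC2935 alone and the other values are from the joint fit of the 3 lines, so they do not add up exactly. TP63 fell in HCC2935 and had changes of 2.78 in PC9 and 0.50 in H1975 (difference -3.06, adjusted p = 1.2e-09). BATF had changes of 0.24 and -0.82 in the other lines (difference 1.95, adjusted p = 1.72e-16), and CD74 of 0.66 and 0.70 (difference 2.34, adjusted p = 5.91e-08).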

How the data were processed

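Chromatin accessibility was measured by ATAC-seq. According to the submitters' processing notes, the tools were BWA 0.7.17, SAMtools 1.9, MACS2 2.2.6, deepTools 3.4, featureCounts 2.0.0 and ChIPseeker 1.29.1. The deposited tables hold raw read counts per region, with no normalization by the authors. The authors' peak lists, with −log10 p and q values, deposited per library, were used only to say in how many libraries a peak was called.

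Counts of the 9 HCC2935 libraries (control, DTP and combination) were fitted together with edgeR 4.0.16 in R 4.3.3 (filterByExpr, TMM, quasi-likelihood F test, Benjamini-Hochberg adjusted p under 0.05). A prior count of 2 was used for log2 CPM values, from which the bin deviations were taken. The fitted changes used edgeR's default prior count. For the subtracted change, the median deviation of each 10 Mb bin in each library entered the offset. SE is the size of the log2 change divided by the square root of F. CPM is scaled to the library's total over tested regions times its TMM factor and is not corrected for bins. For the 3 cell lines, regions were matched by a reciprocal overlap of at least 50% and the change in HCC2935 was tested against the mean of the other lines. The fits were tested on simulated data. Named regions were the largest changes, 8 outside promoters and 6 promoters in each direction, loci were the 8 highest and 8 lowest medians among symbols with at least 5 regions, at least 50% of them called one way and none the other, and listed genes were named where their promoter was called or at least 3 regions outside promoters were called one way and none the other. EGFR, FOSL1, YAP1, AMOTL1, INSIG1, FADS1, KRT8 and CDH1 are named outside that rule, after their values were seen. Some results that the rules select are not reported here. The members and lists were chosen with earlier results of these data known. Region coordinates are in hg38.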

Additional observations from a re-analysis of the deposited data

Results flagged for a closer look

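The DTP change of HCC2935 differed from the mean change of PC9 and H1975, by a test of the difference itself, at 20779 regions and at 40 of the listed promoters that were called in HCC2935.

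Of the 27 named regions 12 were matched in all 3 lines, and the difference passed the test at 11 of them. Outside promoters it was 7.01 near LOC389895 (0.57 in PC9, 1.33 in H1975, adjusted p = 1.36e-05) and 6.14 near SLC25A37 (0.46 and 1.46, adjusted p = 2.64e-05). There the HCC2935 controls held 0 counts, so these sizes depend on edgeR's default prior count. The difference was 3.29 for RYR2 (0.95 and 4.48, adjusted p = 0.0354) and -3.22 for PITPNM3 (-0.72 and -1.67, adjusted p = 5.02e-10). Among promoters that rose it was 4.52 for CORO1C and 4.52 for FNDC3B (0.81 and 1.21), and it was 2.55 for SCAT2 (2.36 and 1.67, adjusted p = 0.00454). Among promoters that fell it was -1.53 for RNU5F-1 (-1.51 and -3.04), -2.64 for KATNBL1 (-0.57 and -1.30), -2.49 for RNVU1-6 (-0.70 and -1.45) and -2.68 for IL17B (0.41 and -1.02). The named regions were chosen for large changes in HCC2935, so a larger change there than in the other lines describes the choice in part.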

How the results depend on the processing

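The 27 named regions were called in the same direction in all 531 alternative values (largest adjusted p = 0.00017). Settings in which a named region was not tested gave no value and are not among the 531. The regions were chosen for large calls in these same libraries, so repeated calls are no independent support. As is, 30719 regions were called when only annotated regions were tested and 10947 with a minimum mean of 50 counts, both with fewer regions tested, and 44965 to 55620 with 1 library left out. With bin medians subtracted, the counts were 26098, 7534 and 36038 to 46568 in the same order, and 31499 with DESeq2, for which the cause was not tested. With no filter on low counts 60.4% of the calls as is and 61.2% after subtraction were higher, against 50.1% and 49.9%. Bins of 2, 5 and 20 Mb and whole chromosomes gave 47198, 48203, 49962 and 53617 calls. Against H1975 alone 34460 regions differed, against PC9 alone 19012, and with 1 HCC2935 library left out 17197 to 20556. Same-numbered control and DTP libraries did not deviate together (r = 0.0199, -0.0127 and -0.152), so they share only a number. A replicate block gave 58165 calls as is, 49326 after subtraction and 19429 between lines. With the combination libraries left out, 53631 regions were called as is and 45771 after subtraction. Depth limits regions near the median mean count of 17 and promoters with few control counts.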

Other observations

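The sequential combination libraries share the controls with DTP and had also been under osimertinib, so their values are given side by side. The chromosome 14 bin from 100 Mb had a combination mean 0.80 below control (median -1.04 in DTP), and the chromosome 11 bin from 10 Mb one 0.89 above control (median 0.97 in DTP). The chromosome 10 bin from 130 Mb had -0.61 in the combination and -0.97 in DTP, and the chromosome 5 bin from 0 Mb had -0.08 and -0.32. At the SCAT2 promoter the combination libraries had 10.4, 13.4 and 17.1 CPM, beside 7.41 to 8.59 CPM in DTP, and at CORO1C 3.53, 5.05 and 4.83 CPM, beside 7.06 to 9.69 CPM. These differences between DTP and combination were not tested.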
